A study of Mus musculus with 10 samples.

Results

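Transcripts of T cells from mouse melanomas were compared between mice given an agonistic antibody to CD40 and mice that received neither agent of the study. The comparison used 6 of the 10 samples of the series, 3 named CD40 and 3 named Control, chosen by the group in their labels and not by any measured value. The strain label of all samples names the alleles BrafCA and Tyr::CreER, whereas their genotype label reads wild type. In this model a tamoxifen-dependent Cre is driven by the promoter of Tyr, a melanocyte gene, so that recombination is limited to cells of that lineage, and T cells are not targeted by it. The mice of both groups ate normal chow. CD40 mice received the antibody FGK4.5 intraperitoneally at 10 mg/kg every 3 days for up to 10 doses, starting 30 days after tumor induction at a total tumor volume under 100 mm3, and the vehicle of the study was PBS. Tumors were taken after 30 days or at an endpoint of 2 cm3. Each sample pooled at least 3 tumors, and the ages of the mice are described only as matched, so p-values measure the spread between pools. In what follows, values are normalized counts and are listed in the order of libraries 1, 2 and 3 of each group.

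CD40 is a receptor of the tumor necrosis factor receptor family on dendritic cells, macrophages and B cells, and its ligand, encoded by Cd40lg, is shown by activated helper T cells. An agonistic antibody stands in for that ligand and licenses antigen-presenting cells to prime T cells, so its effects on T cells are held to be mainly indirect. In mouse skin and its tumors, T cells include conventional CD4 and CD8 cells, regulatory cells marked by Foxp3, and gamma delta cells, many of which make the type 17 cytokines IL-17A, IL-17F and IL-22 under the influence of the cytokines IL-1β and IL-23.

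The tissue label of the samples names macrophages, in contrast to the titles, which name T cells. Cd3e, a chain of the T cell receptor complex, held 13804, 10586 and 22822 counts in the control libraries and 17238, 17149 and 18088 in the CD40 libraries. Cd4 held 2146, 2226 and 2364 against 2764, 2794 and 3738, and Cd8a 1911, 1691 and 1475 against 3949, 2744 and 1051. Csf1r, the defining receptor of macrophages, lay between 99 and 235 counts in these libraries, and Adgre1, which encodes the macrophage protein F4/80, between 0 and 78. The T cell transcripts of the titles were thus present in every library, with Csf1r and Adgre1 at low counts. Other genes of the macrophage and monocyte list were higher, such as Ccr2 at 2501 to 4455 and Ly6c2 at 1557 to 3545. That list summed to 14241 to 18711 in controls and to 11524 to 24577 with CD40. The protocols in the labels name no step that selects T cells. Normalized counts per library summed to between 11538244 and 14024851. These libraries also differed in ways that the labels do not give. Transcripts of 4 Y-linked genes summed to 2438 in Control 1, 1569 in CD40 2 and 3072 in CD40 3 and were at 0 in the other 3 libraries. Xist, a noncoding RNA encoded on the X chromosome, ran the other way. It held 12 counts in Control 1, 0 in CD40 2 and 5 in CD40 3, against 281 in Control 2, 3217 in Control 3 and 672 in CD40 1. The labels do not give the sex of the mice, and the groups may not be balanced for it. Malat1, a nuclear noncoding RNA, ranged from 14056 to 59286 in controls and from 25034 to 95260 in the CD40 libraries, and 2 of 4 nuclear noncoding RNAs were higher with CD40. CD40 3 stood apart in several respects, with the lowest weight (0.458) when libraries were weighted by their fit, the highest Malat1 and the lowest sum of mitochondrially encoded transcripts (123068 against 227789 to 369537 in controls). By rank correlation over genes with a mean of at least 100, the libraries did not sort by group. The least alike pair was CD40 2 and CD40 3 (0.793), and the most alike was Control 2 and CD40 1 (0.911). In these bulk samples, fewer cells of a type and less RNA per cell cannot be told apart.

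Of 14621 genes kept, 0 passed an adjusted p under 0.05 in limma (0.0% of those tested). An unadjusted p under 0.05 was reached by 684 genes (4.68%), 276 of them higher with CD40 (1.89%) and 408 lower (2.79%). If no gene differed, 731 genes (5%) would be expected at this threshold, so reaching it does not by itself mark a gene as different. Of all genes kept, 7157 were higher with CD40 and the median log2 difference was -0.01. Without CD40 3 the count at an unadjusted p under 0.05 was 1512, and without Control 1 it was 415. A separate description, with no test, counted genes that differed by 2-fold or more with no overlap between the 3 values of each group. It held 677 genes (4.63%), 282 higher with CD40 (1.93%) and 395 lower (2.7%). Since no gene passed after adjustment, the genes below are described as higher or lower, by their values in each library, their log2 difference ± its standard error (SE), and whether the groups overlapped. Several of them were named with their values known. Gene lists are described by counts and medians, and their shares are to be read against the percentages just given.

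**Figure D1:**
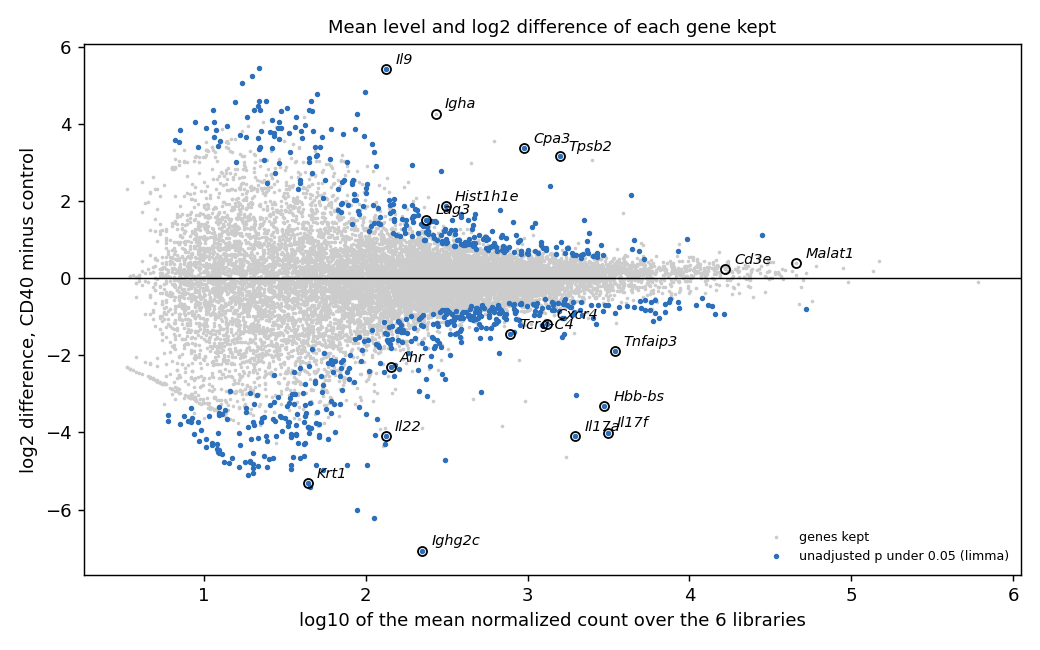
Each point is 1 of the 14621 genes kept, with the log10 of its mean normalized count over the 6 libraries on the x axis and its log2 difference, CD40 minus control, on the y axis. Blue points are the 684 genes at an unadjusted p under 0.05. Il17a, Il17f, Tnfaip3 and the globin gene Hbb-bs lie far below 0 for genes of their level, and the spread of the differences widens toward low counts.

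The gene with the smallest p of the comparison was a cytokine gene of type 17 T cells, and its close relatives differed in the same direction. Il17a, which encodes the signature cytokine IL-17A, held 3182, 3672 and 4222 counts in the control libraries and 485, 155 and 128 in the CD40 libraries. The groups did not overlap, and the lowest control lay more than 6 times above the highest CD40 library. The log2 difference was -4.10 ± 0.46. Its adjusted p was 0.0893 in limma over the 6 libraries and 0.00915 in limma over all 10 libraries of the series. Of these 2 fits, Il17a passed only in the second, and it also passed under some other settings given in the last section. Among libraries with Y-linked transcripts (1 control, 2 CD40) the difference was -4.49, and among those without (2 controls, 1 CD40) it was -3.02. Il17f encodes IL-17F, which forms dimers with IL-17A and lies beside Il17a on chromosome 1. It held 3196, 7086 and 6212 counts in controls and 2058, 188 and 86 with CD40, a log2 difference of -4.01 ± 0.94 (adjusted p = 0.94, limma). The difference in Il17f was -4.64 among libraries with Y-linked transcripts and -1.69 among those without. CD40 1 was more than 10 times above the other 2 CD40 libraries and still below each control. Il22, whose product acts on keratinocytes and other epithelial cells, held 191, 294 and 231 against 12, 2 and 67 (-4.09 ± 1.06).

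For these neighbouring cytokine genes, both with log2 differences beyond -4, the 150 bases before the RefSeq transcription start are shown for orientation (GRCm38.p6). Capitals mark the hexamer AGGTCA that many nuclear receptors bind, searched on both strands. In Il17a (chr1:20730755-20730904, plus strand) it reads TGACCT, that is, on the opposite strand, 120 to 115 bases before the start, and in Il17f (chr1:20784271-20784420, minus strand) it lies 58 to 53 bases before the start on the same strand. The motif occurs in 8.58% of the 32851 RefSeq promoter windows of this length, so a match is a description of the sequence and no evidence of binding.
Il17a: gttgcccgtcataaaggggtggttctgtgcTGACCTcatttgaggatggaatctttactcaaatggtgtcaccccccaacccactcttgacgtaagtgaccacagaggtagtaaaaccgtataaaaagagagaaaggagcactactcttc
Il17f: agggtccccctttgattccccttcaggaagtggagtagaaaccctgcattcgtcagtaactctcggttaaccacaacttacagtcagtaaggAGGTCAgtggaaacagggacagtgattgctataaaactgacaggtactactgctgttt

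The wider type 17 and gamma delta list followed the same direction. Of its 27 measured genes, 25 were lower with CD40 and 2 higher, with a median log2 difference of -0.82; the 2 higher genes were Ccr6 and Batf. At an unadjusted p under 0.05, 12 were lower and 0 higher, and 8 were lower by 2-fold or more without overlap. The median stayed between -1.12 and -0.52 when each library was left out in turn. By library it was -0.73, -1.37 and -0.58 in CD40 1, 2 and 3, relative to the control mean.

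Among the receptors that sustain type 17 cells, Il23r, a subunit of the IL-23 receptor, held 131, 95 and 146 counts in controls and 68, 3 and 29 with CD40 (-2.60 ± 1.04). Il1r1, the receptor for IL-1, held 1160, 630 and 1209 against 234, 104 and 641 (-1.94 ± 0.60). For Il23r the groups did not overlap, whereas for Il1r1 CD40 3 reached the lowest control. Transcription factors of the program differed less evenly. Ahr, the ligand-activated receptor needed for IL-22 production, held 256, 109 and 356 in controls and 67, 43 and 27 with CD40, without overlap (-2.30 ± 0.66). Maf, a factor that drives IL-17 and IL-10, held 12578, 5142 and 9694 against 4088, 3538 and 7100 (-0.87 ± 0.37), and CD40 3 lay above Control 2. Rora, which encodes a nuclear receptor, was at 1570, 1030 and 2279 against 1062, 1004 and 1163 (-0.52 ± 0.31). For Rora the CD40 values lay near the lowest control, 1 of them below it.

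Most genes of the gamma delta receptor and its cells were also lower. Tcrg-C4, a constant segment of the T cell receptor gamma chain (chr13:19344558-19352756), was even within each group, with 1148, 1070 and 1235 counts in controls and 427, 404 and 419 with CD40. Its groups stood 2.76-fold apart in their means with little spread in either (-1.46 ± 0.26, adjusted p = 0.885, limma). The other gamma constant segments kept overlapped between groups. Tcrg-C1 held 2470, 2078 and 3209 against 1651, 983 and 2791, and Tcrg-C2 held 1394, 1616 and 2509 against 2545, 1089 and 1434. Trdc, the constant segment of the delta chain, held 6354, 5633 and 7929 against 3527, 2450 and 5940 (-0.82 ± 0.32), and here CD40 3 lay above Control 2. Among variable segments, Trdv5 held 440, 406 and 705 against 270, 70 and 103 (-1.99 ± 0.54). Trdv4, the delta segment known from epidermal and fetal-type gamma delta cells, held 1407, 891 and 1261 against 437, 259 and 1136 (-1.20 ± 0.49). Tcrg-V4 overlapped between groups, at 274, 431 and 612 against 401, 112 and 252. Tcrg-V6 did not follow, at 246, 164 and 202 against 93, 91 and 394, with the highest value in CD40 3. In all, 17 gamma and delta receptor genes were measured, of which 12 were lower and 5 higher, with a median of -0.62. At an unadjusted p under 0.05, 4 were lower and 0 higher, and 2 were lower and 0 higher by 2-fold or more without overlap. This family was chosen after its values were seen, and reads of near-identical gamma constant segments can be assigned to either copy. Other genes typical of these cells were Blk, a Src-family kinase, at 2712, 1450 and 2809 against 1107, 320 and 1333 (-1.51 ± 0.51), and Aqp3, a glycerol and water channel, at 1151, 787 and 1520 against 777, 169 and 575 (-1.39 ± 0.54). The groups did not overlap for Blk or Aqp3.

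Tnfaip3 and 3 genes of mRNA decay were also lower, and they are single genes chosen with their values known, not a list. Tnfaip3 and Zc3h12a are counted again in the NF-κB list below, and Zfp36 and Zfp36l2 in the immediate early list. Tnfaip3 encodes A20, an ubiquitin-editing enzyme that shuts down NF-κB signaling and is itself induced by it. Its counts were 6755, 4391 and 5004 in controls and 1690, 2031 and 833 with CD40. The groups did not overlap, with means 3.55-fold apart (-1.90 ± 0.35, adjusted p = 0.885, limma). Zfp36l2 and Zfp36 encode proteins that bind AU-rich elements of cytokine mRNAs and promote their decay. Zfp36l2 held 3010, 1986 and 2409 against 687, 833 and 1219 (-1.45 ± 0.29), and Zfp36 held 6132, 4402 and 6548 against 3509, 3165 and 3353 (-0.75 ± 0.23), both without overlap. Zc3h12a, whose product Regnase-1 cleaves such mRNAs, held 229, 137 and 114 against 38, 82 and 82 (-1.25 ± 0.59).

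The lower level of Tnfaip3 was not shared by NF-κB targets as a list. Of 26 genes of NF-κB feedback, 12 were higher and 14 lower, with a median of -0.14 that turned to 0.04 without Control 1, and only Tnfaip3 among those lower and Tnip3 among those higher had an unadjusted p under 0.05. Tnip3, which encodes an A20-binding inhibitor, held 130, 47 and 12 in controls and 135, 170 and 175 with CD40 (1.88 ± 0.83). Nfkbia, the inhibitor IκBα, held 9042, 10182 and 6579 against 10078, 15133 and 6127, with overlapping groups (0.21 ± 0.33). The window before the start of Tnfaip3 is printed because it carries both an AP-1 site (TGACTCA, both strands searched) and the NF-κB consensus, matched at 2 places, all in capitals (GRCm38.p6, chr10:19015411-19015547, minus strand, RefSeq). Its length is 137 bases, since farther out an exon of another transcript is annotated. In windows of this length the AP-1 site occurs in 2.61% and the NF-κB consensus in 2.13% of RefSeq promoters.
Tnfaip3: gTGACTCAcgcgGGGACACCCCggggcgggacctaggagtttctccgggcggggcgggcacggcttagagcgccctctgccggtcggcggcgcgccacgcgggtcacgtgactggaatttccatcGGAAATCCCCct

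Immediate early genes, which respond to receptor signaling and to the handling of cells within minutes, were mostly lower. Of 30 measured, 24 were lower and 6 higher, with a median of -0.70, and 6 lower and 0 higher at an unadjusted p under 0.05. These 6 were Fosb, Junb, Nr4a1, Dusp5, Zfp36 and Zfp36l2, of which Zfp36 and Zfp36l2 are described above. Nr4a1, an orphan nuclear receptor that reports T cell receptor signaling, held 1471, 722 and 841 against 381, 528 and 488 and did not overlap (-1.06 ± 0.34). Junb, an AP-1 subunit, held 5280, 3646 and 2066 against 1505, 2583 and 852 (-1.19 ± 0.44), so that CD40 2 exceeded Control 3. Fos held 3368, 3597 and 6412 against 3029, 4234 and 533, with its single low value in CD40 3 (-1.17 ± 0.66). Fosb was likewise at 7 in CD40 3 and at 154 or more in every other library of the comparison. The median of the list relative to the control mean was -0.54 in CD40 1, -0.14 in CD40 2 and -0.99 in CD40 3. In the controls it was 0.33, -0.31 and 0.14, so that Control 2 lay below CD40 2. The median log2 difference was -0.32 when CD40 3 was left out. Egr1 and Egr2, which also report receptor signaling, were at 264, 112 and 221 against 257, 238 and 342, and at 202, 73 and 131 against 465, 200 and 116.

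Cxcr4, Cd69 and Rgs1 were lower by smaller amounts. Cxcr4, the receptor for the chemokine CXCL12 of stroma and bone marrow, held 1949, 2022 and 1560 counts in controls and 674, 893 and 846 with CD40, with a gap between the groups and a ratio of means of 2.29 (-1.20 ± 0.26). Cd69, which retains T cells in tissue by opposing the receptor S1PR1, held 6072, 7314 and 7520 against 5742, 4406 and 3615 (-0.62 ± 0.24). Rgs1, a regulator that dampens chemokine receptor signaling, held 13564, 22015 and 16059 against 11740, 12703 and 7119 (-0.73 ± 0.29). None of these 3 genes overlapped between groups. Tissue residency as a list showed no common direction, with 8 of 15 genes higher, 7 lower and a median of 0.06 that turned to -0.10 without Control 1. Klrg1, an inhibitory receptor of differentiated effector and tissue regulatory cells, held 2499, 3558 and 3130 against 1820, 1670 and 2161 (-0.69 ± 0.24). Tgfbr1, a receptor for TGF-β, held 461, 481 and 609 against 243, 295 and 299 (-0.88 ± 0.33).

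**Figure D2:**
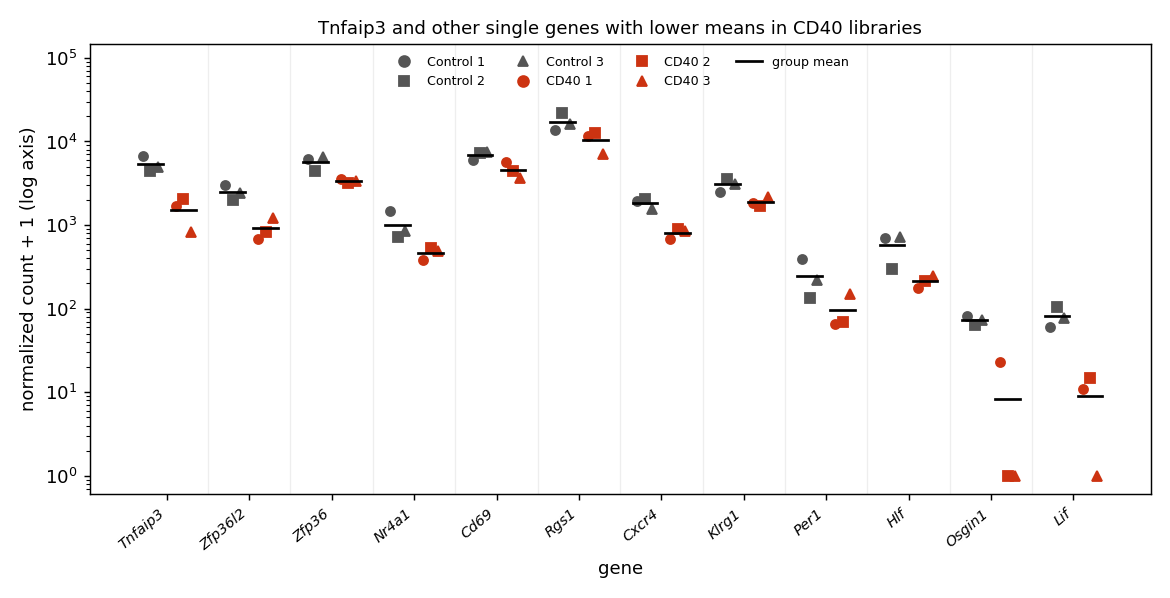
Normalized counts + 1 (log axis) of 12 genes, with 1 symbol per library (circles, squares and triangles for libraries 1, 2 and 3), gray for control and red for CD40, and black bars for group means. For Tnfaip3 the CD40 libraries lie between 833 and 2031 and the controls between 4391 and 6755, Zfp36 and Cxcr4 show the same separation at a smaller distance, and the red values of Osgin1 and Lif reach 0.

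Clock-controlled and glucocorticoid-responsive genes were lower in 13 of 15 cases, with a median of -0.55. Hlf, a clock-output transcription factor, held 695, 298 and 716 against 176, 214 and 245 without overlap (-1.33 ± 0.43). Per1, a core clock gene that glucocorticoids induce, held 392, 133 and 217 against 65, 69 and 150 (-1.35 ± 0.58), where CD40 3 lay above Control 2. Tsc22d3, the glucocorticoid-induced leucine zipper, held 8624, 13798 and 11585 against 7951, 7039 and 10777 (-0.40 ± 0.26). By library the median was -0.49, -0.72 and 0.39 in CD40 1, 2 and 3, so CD40 3 did not share the direction. Lif, a cytokine of the IL-6 family, held 59, 105 and 77 against 10, 14 and 0 (-3.85 ± 1.21). Osgin1, an oxidative stress response gene, held 80, 62 and 72 against 22, 0 and 0 (-4.66 ± 1.41), while its list of NRF2 targets was split, with 10 of 19 higher and 9 lower.

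Regulators of chromatin and RNA were among the lower genes with the smallest p-values. Epc2, a subunit of the NuA4 acetyltransferase complex, held 325, 318 and 455 against 114, 18 and 48 (-2.93 ± 0.67). Bmi1, a Polycomb subunit that represses the Cdkn2a locus, held 426, 390 and 421 against 147, 156 and 104 (-1.62 ± 0.38). Fubp3, a protein that binds single-stranded nucleic acid, held 701, 989 and 591 against 335, 214 and 221 (-1.56 ± 0.35). For each of the 3 the highest CD40 value was well under the lowest control. No list groups them, and their adjusted p was 0.94 in limma.

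Cytokine genes outside the type 17 program had no common direction. The list of 29 T cell cytokines and chemokines, which also holds Il17a, Il17f and Il22, had 20 higher and 9 lower. Its median was 0.29, and it was 0.03 without CD40 1 and 0.71 without CD40 3. At an unadjusted p under 0.05, 3 were higher (Il13, Ccl1 and Ccl3) and 4 lower (Il17a, Il17f, Il22 and Lif). Over 34 cytokine and chemokine receptors 19 were higher and 15 lower, with a median of 0.10 that turned to -0.09 without Control 2. Among type 2 genes, 9 of 16 were higher and 7 lower, with a median of 0.12 (0.01 without Control 3), 3 higher and 0 lower at an unadjusted p under 0.05. Il9, a growth factor for mast cells and T cells, held 0, 32 and 1 counts in controls and 56, 159 and 556 with CD40, without overlap (5.41 ± 1.44). Il13, a cytokine of type 2 responses, held 49, 125 and 122 against 282, 535 and 155 (1.64 ± 0.61). The related cytokine genes did not share this, as Il4 was at 72, 244 and 159 against 8, 214 and 76 and Il5 at 118, 319 and 158 against 250, 285 and 279. Gata3, the transcription factor of the type 2 lineage, held 3093, 1689 and 3248 against 1462, 2454 and 2434 (-0.32 ± 0.33). Ecm1, which in type 2 cells promotes exit from lymph nodes, held 352, 145 and 475 against 576, 504 and 749 (1.05 ± 0.46). Ccl1, a chemokine for CCR8-bearing cells, held 505, 2511 and 1205 against 6196, 14214 and 1539 (2.16 ± 0.77), and CD40 3 fell inside the control range. For Il9, the gene of this group that was near 0 in controls, the 150 bases before its RefSeq start (chr13:56482258-56482407, minus strand, GRCm38.p6) are shown with an AP-1 site in capitals, a motif found in 2.84% of windows of this length.
Il9: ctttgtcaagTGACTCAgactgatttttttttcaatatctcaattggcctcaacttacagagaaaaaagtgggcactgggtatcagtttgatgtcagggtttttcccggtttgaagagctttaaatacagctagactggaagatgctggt

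Type 1 genes leaned higher. Of 16 measured, 12 were higher and 4 lower, with a median of 0.33, and 4 higher and 0 lower had an unadjusted p under 0.05. The median was 0.06 without CD40 1 and 0.86 without CD40 3, and in CD40 3 alone it was 0.08 relative to the control mean. These 4 genes were Cxcr3, the receptor for interferon-induced chemokines, at 1142, 2105 and 1385 against 3842, 4011 and 1570 (0.95 ± 0.39), Il12rb2, Hopx and Ccl3. Il12rb2, the inducible subunit of the IL-12 receptor, held 3, 100 and 32 against 139, 142 and 280 without overlap (2.91 ± 1.09). Hopx, a survival factor of effector cells, held 251, 340 and 414 against 578, 1239 and 456 (1.07 ± 0.42). Ccl3, an inflammatory chemokine, held 190, 272 and 133 against 912, 847 and 203 (1.50 ± 0.59). CD40 3 was the lowest CD40 library for 3 of these 4 genes, and it was inside the control range for Cxcr3 and Ccl3. Ifng, the cytokine that defines the lineage, held 876, 1063 and 563 against 2659, 1949 and 203. The 3 CD40 libraries thus lay on both sides of the controls, and the log2 difference of 0.34 ± 0.81 (95% interval -1.48 to 2.15) turned to -0.36 without CD40 1 and to -0.13 without CD40 2. Tbx21, the type 1 transcription factor T-bet, was at 211, 5 and 159 against 95, 80 and 81.

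Cytotoxic and inhibitory genes were higher singly rather than together. Prf1, the pore-forming protein perforin, held 142, 287 and 190 counts against 511, 330 and 515, without overlap (1.16 ± 0.41). Gzmb, the protease granzyme B, held 1820, 3342 and 2513 against 4057, 7246 and 2457, with CD40 3 inside the control range (0.75 ± 0.39, 95% interval -0.13 to 1.62). Gzma was on the lower side, at 2015, 2538 and 1102 against 1591, 1071 and 444 (-0.96 ± 0.48). Of 19 cytotoxic genes, 13 were higher and 6 lower, with a median of 0.26 (0.09 without CD40 2 and 0.74 without CD40 3), and only Prf1 had an unadjusted p under 0.05. Lag3, an inhibitory receptor for MHC class II, held 109, 166 and 96 against 283, 330 and 437. The lowest CD40 library was above the highest control, the means stood 2.83-fold apart, and the difference was 1.51 ± 0.43. Pdcd1, which encodes PD-1, held 1622, 2057 and 2188 against 5537, 2833 and 1868 (0.67 ± 0.37, 95% interval -0.16 to 1.50). Havcr2, which encodes TIM-3, held 208, 490 and 533 against 416, 646 and 286, and Tigit held 2770, 1758 and 3996 against 3138, 3841 and 4634. Havcr2 and Tigit overlapped between groups. Over 22 inhibitory receptor and exhaustion genes, 13 were higher and 9 lower, with a median of 0.15 that was 0.04 without Control 1.

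Of 21 regulatory T cell genes, 15 were higher and 6 lower, with a median of 0.31 (0.16 to 0.32 with each library left out in turn), and only Klrg1, which was lower, had an unadjusted p under 0.05. Among the higher members were Tnfrsf18 (0.54 ± 0.33) and Capg (0.48 ± 0.35), both with overlapping groups. Foxp3 and Ctla4 had group means on the lower side with CD40, also with overlapping groups. Foxp3, the defining transcription factor of regulatory T cells, held 2639, 1620 and 2543 against 1693, 1613 and 2713 (-0.18 ± 0.30, 95% interval -0.86 to 0.49). Ctla4, the inhibitory receptor that these cells carry at high level, held 8121, 8928 and 7599 against 6354, 4648 and 9172 (-0.34 ± 0.27, 95% interval -0.94 to 0.26). Costimulatory genes were higher in 17 of 20 cases, with a median of 0.30 that was 0.52 without CD40 3. Cd27, a costimulatory receptor of the TNF receptor family, held 1916, 1814 and 1573 against 2244, 2563 and 2738 without overlap (0.51 ± 0.23). Tnfrsf9, which encodes 4-1BB, held 3320, 4440 and 5062 against 7524, 5694 and 5088, and Icos held 8793, 13018 and 14650 against 16148, 15348 and 15743, both also without overlap. Cd40lg, the natural ligand of the receptor that the antibody targets, held 582, 730 and 1012 against 860, 772 and 741 (0.06 ± 0.30, 95% interval -0.60 to 0.73), and its sign changed when Control 1 was left out. Cd40 itself held 366, 97 and 90 against 205, 405 and 42 (95% interval -1.89 to 1.98). These intervals do not show that the genes were equal in the 2 groups.

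The T cell receptor complex and co-receptors were higher in 17 of 20 cases with a median of 0.28. An unadjusted p under 0.05 was reached by 0 of 20, where the share over all genes kept was 4.68%. In CD40 3 the median lay at -0.11 relative to the control mean, and without CD40 2 it was 0.13. Cd3e differed by 0.23 ± 0.29 and turned to -0.02 without Control 2. Cd4 did not overlap between groups (0.45 ± 0.23). Cd7, a surface protein of T and natural killer cells, held 2214, 3912 and 3204 against 5081, 7012 and 5939 (0.98 ± 0.27). Naive and memory genes had no stable direction, with 10 of 18 higher and a median of 0.03, and medians of -0.13, -0.81 and 0.75 in the 3 CD40 libraries relative to the control mean. Tcf7, the factor of naive and stem-like cells, held 5153, 2088 and 3847 against 2132, 1353 and 4349 (95% interval -1.58 to 0.43).

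**Figure D3:**
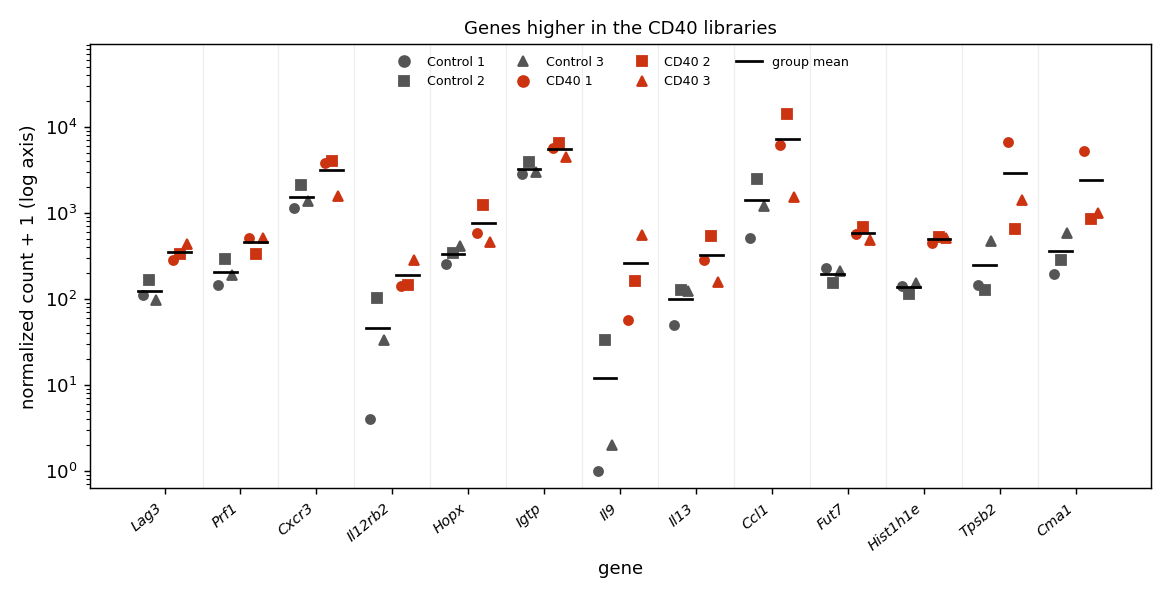
Normalized counts + 1 (log axis) of 13 genes whose group means were higher with CD40, with 1 symbol per library and bars for group means. Hist1h1e (449 to 517 against 114 to 151), Lag3 and Fut7 are separated with little spread, whereas CD40 3 lies within or near the controls for Cxcr3 and Ccl1, and CD40 1 exceeds the other CD40 libraries for the mast cell genes Tpsb2 and Cma1.

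Interferon-γ targets and antigen presentation leaned higher by small amounts. Igtp, an interferon-γ-induced GTPase of cell-autonomous defense, held 2851, 3893 and 3004 against 5665, 6489 and 4435 without overlap (0.76 ± 0.24). Its relative Gm12250 held 267, 376 and 370 against 740, 396 and 1179 (1.07 ± 0.42), and reads shared among these related GTPases can be assigned to either. Of 26 genes of the interferon-γ response, 17 were higher and 9 lower, with a median of 0.23 that was 0.06 without CD40 1. By library it was 0.55, 0.19 and 0.16 in CD40 1, 2 and 3, and 0.21 in Control 2. Gbp7 (-0.58 ± 0.27) and Cd274 (-0.64 ± 0.34), among the lower members of this list, did not overlap between groups. The broader interferon-stimulated list had 18 of 33 higher and a median of 0.04, which turned to -0.02 at equal totals, to -0.22 without Control 1 and to -0.14 without CD40 1, so that the list had no stable direction. Rsad2, which encodes viperin, held 8, 18 and 41 in controls and 0 in each CD40 library. MHC class I presentation was higher in 21 of 25 genes, with a median of 0.30 that was 0.12 without CD40 2 and lay at 0.02 in CD40 3. MHC class II genes were higher in 11 of 14, with a median of 0.44 that was 0.05 without CD40 2. H2-DMa, which helps to load peptides, held 1347, 897 and 1014 against 2066, 2212 and 1396 (0.79 ± 0.28). By library the class II median was 0.81, 0.94 and -0.56 in CD40 1, 2 and 3.

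Metabolic and translation genes leaned higher by small amounts in CD40 1 and CD40 2 and not in CD40 3. Glycolysis genes were higher in 18 of 21 cases (median 0.43), nuclear genes of oxidative phosphorylation in 40 of 48 (0.15), proteasome subunits in 24 of 30 (0.19) and cytosolic ribosomal proteins in 70 of 76 (0.18). In these 4 lists 0 genes had an unadjusted p under 0.05 in either direction. Relative to the control mean the 4 medians were 0.46, 0.26, 0.27 and 0.22 in CD40 1, in the same order. Control 2 was also on the higher side, at 0.14, 0.26, 0.22 and 0.17, close to CD40 1 in all but glycolysis. In CD40 3 all 4 medians lay below the control mean, at -0.27, -0.25, -0.18 and -0.07. Without CD40 2 they were 0.08, -0.02, 0.03 and 0.07, so the direction of oxidative phosphorylation rested on that library. All 9 mitochondrially encoded transcripts kept were lower, with a median of -0.71 and 5 of 9 at an unadjusted p under 0.05, and the other 6 of 15 listed were not kept. None was separated by 2-fold or more, and without CD40 3 the median was -0.42. Control 1, with a list median of -0.39 relative to the control mean and a sum of 227789, was level with CD40 1 (-0.37 and 261197) and CD40 2 (-0.43 and 241438). mt-Nd6, a subunit of complex I, held 6525, 8862 and 8450 against 5879, 3974 and 3181 (-0.91 ± 0.27), and its lowest value was in CD40 3. Heat shock genes were higher in 7 of 17 cases (median -0.06), cholesterol synthesis genes in 6 of 18 (-0.15), inhibitors of T cell receptor signaling in 11 of 22 (-0.02) and adenosine pathway genes in 6 of 10 (0.26). The sign of the first 3 of these medians changed under some alternative. Proliferation genes did not separate the groups, as 18 of 38 cell cycle genes were higher and 20 lower, and Mki67 held 2094, 1262 and 2145 against 1634, 2270 and 1825 (0.09 ± 0.28, 95% interval -0.55 to 0.72).

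Histone genes were a further set, chosen after their values were seen. Hist1h1e encodes linker histone H1.4 (chr13:23620629-23622558) and held 140, 114 and 151 counts in controls and 449, 517 and 510 with CD40. The means were 3.64-fold apart, and the difference of 1.86 ± 0.36 lay between 1.75 and 1.95 when each library was left out. Hist1h2al, an H2A gene, held 76, 81 and 78 against 173, 249 and 245 (1.47 ± 0.47). Hist2h3b, an H3 gene, held 38, 37 and 5 against 161, 237 and 200 (3.26 ± 0.84). Of 47 genes with symbols starting Hist, 31 were higher and 16 lower, with a median of 0.74, and 5 were higher and 0 lower at an unadjusted p under 0.05. Most mRNAs of replication-dependent histones lack a poly(A) tail, and histone genes of a cluster are so alike in sequence that reads can be assigned to several of them.

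Other genes with the smallest p-values among those higher had varied roles. Fut7, the fucosyltransferase that builds selectin ligands for skin homing, held 228, 151 and 207 against 573, 690 and 486 (1.58 ± 0.35). Emd, the nuclear envelope protein emerin, held 292, 267 and 293 against 558, 1596 and 1022 (1.77 ± 0.40). Tnfaip8l2, which encodes the immune checkpoint protein TIPE2, held 1041, 1643 and 1832 against 3275, 3671 and 2947 (1.17 ± 0.27). In these 3 genes every CD40 library was above every control. Pold4, a small subunit of DNA polymerase δ, held 564, 553 and 708 against 1223, 1218 and 1131 (0.98 ± 0.26). Arfgap3, which acts in Golgi transport, held 128, 142 and 154 against 444, 403 and 347 (1.48 ± 0.37).

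Transcripts of other cell types also moved with the groups. All 14 mast cell and basophil markers were higher with CD40, with a median of 2.77 and 8 of 14 at an unadjusted p under 0.05. Their summed level was 1210 to 3738 in controls and 4476 to 31261 with CD40, the highest in CD40 1. Tpsb2, a mast cell tryptase, held 143, 126 and 476 against 6696, 649 and 1406 (3.15 ± 0.79), Cma1, a chymase, 193, 285 and 589 against 5312, 856 and 1000 (2.37 ± 0.67), and Mcpt4, also a chymase, 46, 20 and 127 against 1196, 190 and 172. None of the 3 overlapped. Kit, the stem cell factor receptor that mast cells need, held 95, 36 and 104 against 213, 61 and 72. Without any single library the median of the list stayed between 1.69 and 3.47. Reads of the related tryptase genes can be assigned to either copy. Fcer1g, the γ chain shared by Fc receptors of mast cells, macrophages and natural killer cells, held 536, 652 and 484 against 1353, 2782 and 864 (1.42 ± 0.41). Mast cells can themselves express Il13 and Il9, and the part of their transcripts in the higher values of these cytokines was not tested; Il9 was highest in CD40 3 and Il13 in CD40 2, whereas the mast cell sum was highest in CD40 1.

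Immunoglobulin genes differed by class. Ighg2c, the constant gene of IgG2c, held 93, 136 and 1106 counts in controls and 5, 0 and 0 with CD40, without overlap (-7.06 ± 1.28). Ighg2b held 10, 606 and 62 against 0, 0 and 0, at least 75.3-fold lower in the mean when the CD40 libraries were set to a floor of 3 counts each. Igkv9-124, a variable segment of the kappa light chain, held 30, 17 and 480 against 0, 0 and 0. Igha, the IgA gene, was on the other side, with 1524 counts in CD40 1 and 81 in CD40 2 against 17 in Control 2 and 0 in the other libraries. Ighm, at 4726, 6632 and 5638 against 3836, 4962 and 6028, did not separate the groups. Jchain, expressed by antibody-secreting cells, held 24, 611 and 120 against 582, 0 and 0. B and plasma cell markers as a list were lower in 9 of 13 cases, with a median of -0.58 and 0 of 13 at an unadjusted p under 0.05, and their sum was 6891 to 11393 in controls and 7221 to 8255 with CD40. Near-identical immunoglobulin genes share reads.

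Red cell transcripts and most keratinocyte markers were lower. All 5 erythroid genes were lower with a median of -3.03, and their sum was 2943 to 15915 in controls and 877 to 1195 with CD40. Hbb-bs, a β-globin gene, held 6912, 8176 and 1460 against 371, 500 and 438 (-3.33 ± 0.56), and near-identical globin copies share reads. Keratinocyte markers were lower in 11 of 14 genes, with a median of -1.18 and medians by CD40 library of -0.08, -0.76 and -2.03. Krt14, a keratin of the basal epidermis, held 284, 271 and 775 against 363, 77 and 11, and Calm4, a calmodulin-like protein of epidermis, 603, 450 and 579 against 171, 49 and 0. Fibroblast markers were not lower throughout: their median of -1.74 turned to 0.20 without CD40 3, it lay at 1.68 in CD40 1, and their sum there was 9905 against 4729 to 6396 in controls. Dcn, the matrix proteoglycan decorin, held 883, 815 and 1201 against 2418, 482 and 0. Macrophage and monocyte markers were evenly split, with 10 of 20 higher and sums of 14241 to 18711 against 11524 to 24577, and C1qb was at 98, 139 and 96 against 398, 0 and 0. Of the remaining markers, those of dendritic cells were higher in 8 of 16 genes, of natural killer and innate lymphoid cells in 9 of 17, of melanocytes in 6 of 11, of neutrophils in 3 of 9, of endothelium in 1 of 6 and of platelets in 1 of 3. Only the neutrophil and endothelial medians (-1.51 and -0.93) among these 6 lists kept their sign in every alternative. These values stand beside the T cell results above; what part the different admixture of other cells had in them was not tested.

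**Figure D4:**
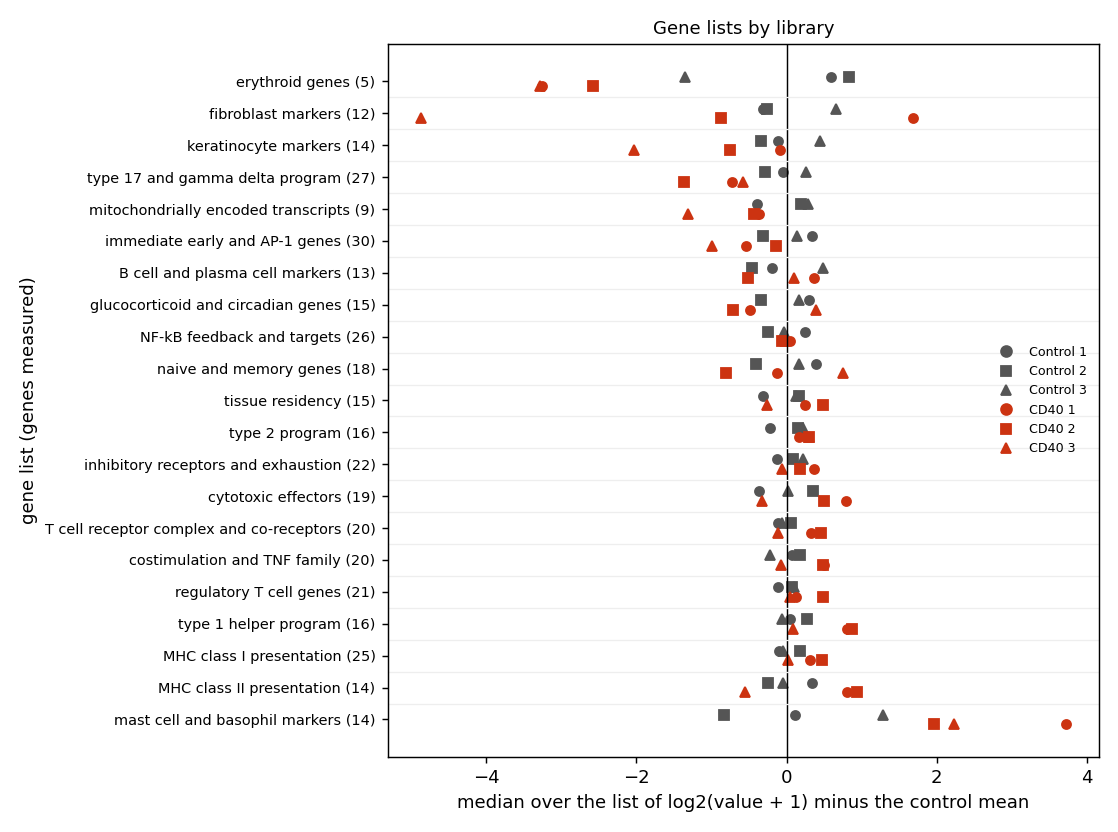
For each of 21 gene lists (number of genes measured in parentheses), symbols give the median over the list of the difference of a library from the control mean in log2(value + 1), gray for control and red for CD40 libraries. The 3 red symbols lie left of all gray ones for the type 17 list (-0.58 to -1.37) and the erythroid genes and right of them for mast cell markers, while those of naive and memory genes, fibroblast markers and MHC class II spread to both sides of 0.

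The other 4 libraries of the series, 2 from mice whose chow held PLX6134, an inhibitor of CSF1R (CSF1Ri 1 and CSF1Ri 6) and 2 from mice given inhibitor and antibody (CSF1Ri+CD40 1 and CSF1Ri+CD40 3), give the levels of the leading genes under other conditions. They are set side by side with no test. Il17a held 1070 and 1138 counts with the inhibitor and 1215 and 978 with both agents, between the control and the CD40 libraries. Tcrg-C4 was also intermediate, at 558 and 916 and at 747 and 653, as was Cxcr4, at 1244 and 1028 and at 951 and 1072. For these genes the libraries with both agents were thus not as low as those with antibody alone. Il17f held 2044 and 3067 against 3997 and 4370, and Il22 held 11 and 58 against 455 and 419, so that in mice on inhibitor the libraries with antibody were the higher ones. Tnfaip3 held 3223 and 2029 against 2906 and 5964. Hist1h1e held 241 and 185 against 230 and 354, Lag3 234 and 277 against 575 and 375, and Il9 99 and 0 against 110 and 22.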

How the data were processed

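Per the labels' protocols, 50 ng of RNA per library went into a low-input SMARTer kit without strand information, read as 75-base pairs. STAR alignment to GRCm38, HTSeq counting and DESeq2 normalization are named in the submitters' processing notes, with versions not given in the sources used here. The deposited values are scores: counts per gene that the authors divided by size factors and rounded. Factors recomputed from them lay within 0.203% of each other, so no scaling was added. Among genes with high counts in both, no 2 of the 6 libraries compared here shared more than 0.356% of their values.

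Of 48825 genes, the 14621 with at least 10 in at least 2 of the 6 libraries were taken to log2(value + 1), on which scale differences of low genes are understated. Limma 3.58.1 (R 4.3.3) fitted 2 groups with a mean-variance trend (4 residual and 5.65 prior degrees of freedom), two-sided, with Benjamini-Hochberg adjustment over all genes; it was tested on simulated data. An exact permutation test of 3 against 3 libraries cannot go below 0.1. Named were the 15 genes of smallest p and the 10 of largest difference per direction (mean of at least 50, no overlap), up to 6 members per list, and genes always given, 285 in all, of which a part is reported; other genes were named after their values were seen. Members and the 44 lists were chosen with earlier results of these data known. An allele of the strain and some measured genes are not reported here. Gene positions are from GENCODE vM21, promoters (4 of 4 matched) from RefSeq. Python 3.11.15 served for the other steps.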

Additional observations from a re-analysis of the deposited data

How the results depend on the processing

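The count of genes passing, 0, became 1 (Il17a) in the fit of all 10 libraries, with a mean of at least 50, with a pseudocount of 10 and after quantile normalization, and 2 (Il17a and Tpsab1) with a term for Y-linked transcripts. Leaving out 1 library gave 0 to 2 genes: Il17a and Il17f without CD40 1, Hba-a1 and Hbb-bs without Control 3. It stayed at 0 with equal totals, library quality weights, no filter, a pseudocount of 0.5 and a term for Malat1. Genes at an unadjusted p under 0.05 numbered 1236 with quality weights, 1141 with a term for Malat1 and 415 to 1512 without 1 library. Genes that differed 2-fold without overlap numbered 368 at a mean of at least 50 and 1087 to 1771 without 1 library, where fewer values make separation easier. Same-number departures from the group means correlated at -0.264, 0.173 and 0.187, and those of unlike numbers at -0.368 to 0.281. Departures within a group sum to 0, so these values are tied and cannot decide whether replicate numbers pair the libraries. A fit with the replicate block gave 0 genes passing and 720 at an unadjusted p under 0.05. Signs changed under some alternative for 24 of 285 named genes and 19 of 44 list medians, including Malat1, Cd3e, Ifng, Il2, Havcr2, Mki67, Cd40, Cd40lg and Csf1r.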
